A study of Mus musculus with 9 samples.

Results

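Testis RNA of 3 Prm2-/Δc males was compared with that of 3 wildtype (WT) males, which are 6 of the 9 libraries of the study. The WT males carried unedited Prm2 on both chromosomes. The Prm2-/Δc males carried the Prm2Δc allele, in which the coding region of the cleaved domain of protamine 2 (cP2) is deleted in frame, opposite the null allele of the Prm2Δ97bp line, so that mature PRM2 without its precursor could be made from 1 allele. Both groups were adult and are labelled as C57BL/6. Cas9 editing was done in B6D2F1 embryos, followed by backcrossing to C57BL/6J, and each library is 1 mouse. The comparison asks which testis transcripts differ in level when only the shortened protein is encoded.

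Late in spermatid development most histones give way first to transition proteins and then to protamines, whose many arginines bind the DNA of the sperm head and pack it tightly. Mouse protamine 2 is made as a precursor whose N-terminal part is cut off step by step once it sits on DNA. Whole testis holds spermatogonia, spermatocytes, spermatids and the somatic cells around them, so a level in bulk RNA reflects both the cells present and the RNA in each, and fewer cells of a type and less RNA per cell cannot be told apart here.

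The edit lies in exon 1 of Prm2 on chromosome 16, which is read from the minus strand. The 2 guide sequences used for the Prm2Δc allele and the coding stretch between their predicted cuts are shown, since the Prm2Δc allele lacks coding sequence in this region. Capitals mark the protospacer adjacent motif next to each guide (PAM, needed by Cas9).
Guide 1, GRCm38 chr16:10791978-10791997, plus strand, opposite coding bases 2 to 21: cctcattcggtagcgaaccaTGG
Guide 2, GRCm38 chr16:10791867-10791885, minus strand, coding bases 114 to 132: ggactatgggaggacacacAGG
Between the cuts, GRCm38 chr16:10791870-10791994, minus strand, coding bases 5 to 129 of 324: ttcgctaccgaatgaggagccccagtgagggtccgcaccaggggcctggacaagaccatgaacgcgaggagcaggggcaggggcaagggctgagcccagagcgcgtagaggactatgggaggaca
These 125 bases follow the reference genome. The repaired allele was made with a template and is not read from these data.

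The libraries were 3′ mRNA libraries with total counts between 9070746 and 17441824. Levels are given as normalised counts, that is, counts divided by the library's effective size after TMM scaling, relative to the mean size of the 6 libraries. The table has 50485 rows, of which 25503 are loci numbered by StringTie and 24982 are named by an Ensembl ID. A name was available for 25027 rows, of which 1721 had enough counts to be tested: 71 loci paired with a name in the sheet of Prm2-/Δc genes supplied with the study, 71 from the corresponding Prm2+/Δc sheet, 1575 rows with their own Ensembl ID, and the 4 loci of the protamine cluster, read from the order of loci along chromosome 16. Within its group, the library of Prm2-/Δc replicate 3 differed most by chi-square per row, a measure on raw counts that grows with depth. Its values against the other Prm2-/Δc libraries were 100 and 101, whereas replicates 1 and 2 differed by 44.3. Within WT the values were 28.6, 61 and 62. Against WT replicates 1, 2 and 3, Prm2-/Δc replicate 3 had 56.9, 63.1 and 111, so it did not stand apart from every library. All pairs therefore differed by far more than sampling noise.

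Across the 17637 rows tested with edgeR's quasi-likelihood test, 0 rows were higher and 1 was lower in Prm2-/Δc when both cutoffs were applied, a Benjamini-Hochberg adjusted p below 0.05 and a log2 fold change above 1 in size (0.00567% of rows). At an unadjusted p under 0.05, 272 rows were higher (1.54%) and 293 lower (1.66%), or 3.2% in either direction. Scaling by library totals in place of TMM made this 201 higher and 361 lower. DESeq2 passed 27 rows as higher and 45 as lower, or 0.253% of 28475 rows. Of these 28475 rows, 9214 were given no adjusted p and could not be called, so this share and edgeR's are over unlike sets of rows. All 72 rows that DESeq2 called were loci of the study's Prm2-/Δc sheet, which was drawn up with the same tool on these libraries. The adjusted p-values given per locus below are those of edgeR's test. The median log2 fold change over all rows was 0.01. Without Prm2-/Δc replicate 3 the edgeR counts became 3 higher and 17 lower (0.108%). The p-values measure the spread between these mice, and with 3 against 3 an exact permutation test of a single gene cannot go below 0.1.

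The locus read as Prm2 was not lower in testes with 1 null allele. Its counts were 105544, 97114 and 116405 in WT and 110578, 109965 and 124872 in Prm2-/Δc, and the groups overlapped. The log2 fold change was 0.11 (SE 0.116), with an adjusted p of 1 in edgeR's test and a two-sided exact permutation p of 0.4. Leaving out each library in turn gave fold changes between 0.05 and 0.19 on the log2 scale. A count for the whole locus adds both alleles together and does not check the genotype of a library.

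Neighbours of Prm2 in the cluster gave small differences as well. Tnp2, a transition protein, had 74221, 72524 and 73799 counts in WT and 87367, 85765 and 80904 in Prm2-/Δc. Every Prm2-/Δc library thus lay above every WT library (4.65% of all rows tested had this order), with a log2 fold change of 0.20 (SE 0.0911) and an adjusted p of 1. Prm3, which lies between Tnp2 and Prm2, had a log2 fold change of -0.13 (SE 0.175). Prm1, which encodes the protamine made without a precursor, had 208424, 250491 and 185831 counts in WT against 155765, 196397 and 423222. Prm2-/Δc replicate 3 alone carried the higher mean of Prm1: the log2 fold change was 0.27 (SE 0.378) and ran from -0.29 to 0.53 when single libraries were left out.

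The 76 loci named by the Prm2-/Δc sheet were chosen by the study on these same libraries, so the counts that follow describe the loci and are no independent evidence of their direction. Of the 71 that were tested, 29 were higher and 42 lower at an unadjusted p under 0.05, beside 1.54% and 1.66% of all rows. Among these 71, normalised counts of the groups did not overlap for 20 that were higher and 36 that were lower in Prm2-/Δc, beside 4.65% and 4.24% of all rows tested (8.89% in either direction). Over all 76 loci, untested ones included, 20 were higher and 39 lower without overlap, and 17 overlapped. The median log2 fold change over the 71 tested loci was -1.63.

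**Figure D1:**
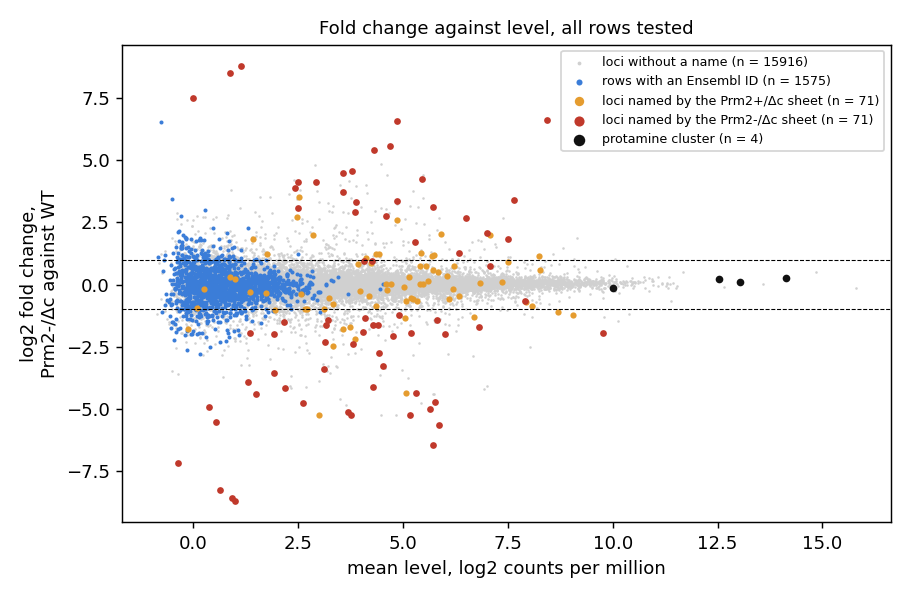
Log2 fold change of Prm2-/Δc against WT (vertical axis) plotted against mean level in log2 CPM (horizontal axis) for every row tested, with dashed lines at a log2 fold change of 1 in either direction. Most loci of the Prm2-/Δc sheet (red, n = 71), which were chosen on these same libraries, lie beyond the dashed lines. Rpl18 (-0.68), Ndufa5 (0.75), Tesk1 (0.93) and AC104834.1 (0.96) lie between the lines. The 4 protamine cluster loci (black) lie near 0 at the right. The points at the far left with the largest changes are loci with 0 counts in 1 group, whose fitted change depends on the prior count.

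**Figure D2:**
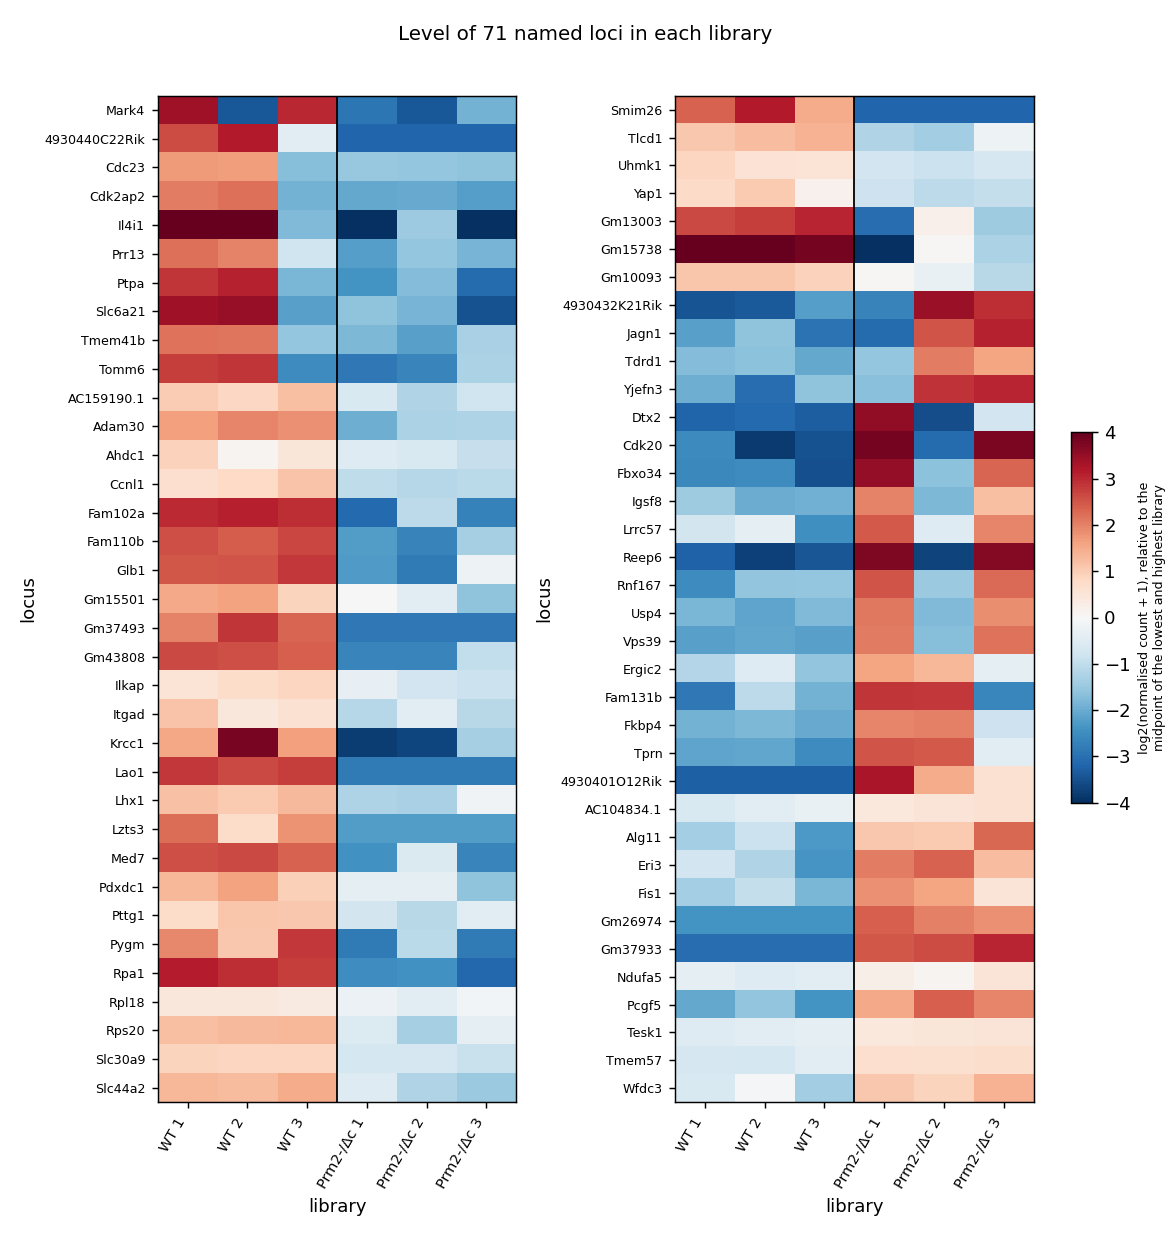
Normalised counts of 71 of the loci named by the Prm2-/Δc sheet, as log2(count + 1) relative to the midpoint between the lowest and highest library of each locus, with colours ending at 4 in either direction. Columns are the 3 WT and 3 Prm2-/Δc libraries. In 29 loci all WT libraries and no Prm2-/Δc library lie above the midpoint, in 12 loci the reverse holds, and the rest have libraries of 1 group on both sides of it.

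Of 5 tested loci of genome maintenance and the cell cycle, 4 were lower and 1 higher at an unadjusted p under 0.05. Rpa1, the large subunit of replication protein A, which coats single-stranded DNA during replication, repair and meiotic recombination, was the only row called. The gene lies at GRCm38 chr11:75298166-75348324 on the minus strand. Its counts were 1694, 1500 and 1302 in WT and 33.4, 35.2 and 21.1 in Prm2-/Δc. The groups were far apart, and no library of either group lay between them. Rpa1 fell by 5.64 on the log2 scale (SE 0.272, adjusted p = 0.00737 in edgeR's quasi-likelihood test). Without single libraries the log2 fold change stayed between -5.78 and -5.44, and the adjusted p lay between 0.00361 and 0.0807. It missed the cutoff without WT replicate 1 (adjusted p = 0.0807) and without Prm2-/Δc replicate 1 (0.0549). It also missed it when the Prm2+/Δc libraries were fitted together with these (log2 fold change -5.65, SE 1.16, adjusted p = 0.792).

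Pttg1 encodes securin, which holds separase in check until sister chromatids part. It had 1923, 2506 and 2454 counts in WT against 699, 533 and 846, a log2 fold change of -1.73 (SE 0.213, adjusted p = 0.199 in edgeR's test). Uhmk1, a kinase that acts on splicing factors and stathmin, had 201, 168 and 161 counts against 64.9, 61.1 and 68.6 (log2 fold change -1.45, SE 0.202, adjusted p = 0.329). In both genes each WT library was above each Prm2-/Δc library. Cdk20, a cyclin-dependent kinase, was the locus of this group with a higher mean in Prm2-/Δc, from 2 mice only. Its counts were 1153 and 1091 in replicates 1 and 3 and 8.61 in replicate 2, against 12.9, 4.64 and 6.26 in WT. Replicate 2 therefore stayed within the WT range, and the log2 fold change of 6.59 had an SE of 1.69 and an adjusted p of 1. Cdc23, a subunit of the anaphase-promoting complex, had 712 and 705 counts in WT replicates 1 and 2, 67.3 in WT replicate 3, and 76, 74.4 and 71.8 in Prm2-/Δc.

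Transcription and chromatin genes were lower in 5 of 6 loci and higher in 1. The higher one was Pcgf5, a subunit of a Polycomb repressive complex that modifies histone H2A, at GRCm38 chr19:36348309-36460970. It had 7.19, 10.4 and 5.48 counts in WT and 97.3, 179 and 132 in Prm2-/Δc (log2 fold change 4.14, SE 0.398, adjusted p = 0.0896 in edgeR's test). The gene was near the lower end of what was measured in WT, and every Prm2-/Δc library was well above that. Med7, a subunit of the Mediator complex that links transcription factors to RNA polymerase, went the other way, with 509, 522 and 432 counts against 14.8, 55.6 and 12.7 (log2 fold change -4.11, SE 0.618, adjusted p = 0.428). Among the edgeR fits that left out 1 library, it passed the cutoff in the one without Prm2-/Δc replicate 2, the highest of its group (adjusted p = 0.0189). Yap1, a coactivator of the Hippo pathway, had 439, 532 and 289.5 counts in WT against 145, 126 and 133 (log2 fold change -1.64, SE 0.26). Lhx1, a LIM homeobox factor, had 77.7, 70.8 and 83.7 counts against 13.9, 13.3 and 30.6 (log2 fold change -2.01, SE 0.396). Neither overlapped between groups, and neither passed the adjusted cutoff. The other members of this group were Krcc1, whose WT counts of 409.9, 1949 and 437 were themselves uneven (9.26, 10.2 and 54.9 in Prm2-/Δc), and Ahdc1 with a log2 fold change of -1.21.

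Among loci for RNA handling in the germ line, 3 were higher and 1 was lower. Ccnl1, the cyclin L1 gene linked to splicing, was the lower one, with 659, 724 and 915 counts in WT and 207, 189 and 198 in Prm2-/Δc (log2 fold change -1.95, SE 0.183, adjusted p = 0.0896 in edgeR's test). The Prm2-/Δc libraries lay within a narrow range (198 ± 8.94, SD, n = 3). Eri3, a member of an exoribonuclease family, had 51.8, 38.3 and 16.4 counts in WT against 371, 463 and 210.1 (log2 fold change 3.31, SE 0.514). Tdrd1, a Tudor protein of the piRNA pathway that keeps transposons silent in germ cells, had 151, 160.1 and 122 counts in WT, and 172, 2075 and 1495 in Prm2-/Δc. Replicate 1 of Prm2-/Δc was just above WT in Tdrd1, while replicates 2 and 3 were far above it, and the adjusted p was 1.

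All 4 loci of the ribosome group were lower. Rps20, a protein of the small subunit and the most abundant of the 76 loci, had 17410, 18479 and 18846 counts in WT and 5189, 3043 and 5896 in Prm2-/Δc (log2 fold change -1.95, SE 0.251, adjusted p = 0.217 in edgeR's test). Rpl18, of the large subunit, had 4024, 4011 and 3751 counts against 2488, 2158 and 2730, a smaller difference of -0.68 on the log2 scale (SE 0.127, adjusted p = 0.764). WT libraries were close to each other in both genes.

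Loci of mitochondria and metabolism were higher in 2 of 8 and lower in 6. The higher ones were Fis1 and Ndufa5. Fis1, an outer membrane protein of mitochondrial and peroxisomal fission, had 80.5, 107 and 57.9 counts in WT and 749, 623 and 299.8 in Prm2-/Δc (log2 fold change 2.77, SE 0.418, adjusted p = 0.428 in edgeR's test). Ndufa5, a subunit of respiratory complex I, had 1363, 1246 and 1357 counts against 2135, 1928 and 2597 (log2 fold change 0.75, SE 0.148, adjusted p = 0.864). No library of 1 group reached the other group's range in either gene. Lao1, an L-amino acid oxidase, had 50.3, 44.1 and 47.7 counts in WT and 0 in all Prm2-/Δc libraries, and was at least 17.3-fold lower against a floor of 3 counts per library (adjusted p = 0.199). Smim26, a small membrane protein, likewise had 46, 81.2 and 24.3 counts in WT and 0 in Prm2-/Δc, at least 17.2-fold lower (adjusted p = 0.628). Glb1, the lysosomal beta-galactosidase, had 101, 103 and 128 counts against 2.78, 1.57 and 14.8 (adjusted p = 0.725). Among the fits that left out 1 library, it passed the cutoff only without Prm2-/Δc replicate 3, the highest of its group (adjusted p = 0.0252). Il4i1, another L-amino acid oxidase, and Tomm6, of the outer membrane translocase, were high in WT replicates 1 and 2 only. Il4i1 had 2192, 1922 and 29 counts in WT, and Tomm6 had 1444, 1542 and 36.

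Each of the 5 transporter and channel loci was lower. Slc30a9, a zinc transporter of mitochondria, had 398, 382 and 383 counts in WT and 129.7, 133 and 113 in Prm2-/Δc (log2 fold change -1.63, SE 0.164, adjusted p = 0.103 in edgeR's test). Slc44a2, a choline transporter-like protein, had 305, 289 and 338 counts against 83.4, 51.7 and 42.2 (log2 fold change -2.39, SE 0.299, adjusted p = 0.199). The groups were apart in both genes. Slc6a21 overlapped: WT replicates 1 and 2 had 1857 and 1961 counts, WT replicate 3 had 38.3, and Prm2-/Δc had 56.5, 47.8 and 14.8.

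**Figure D3:**
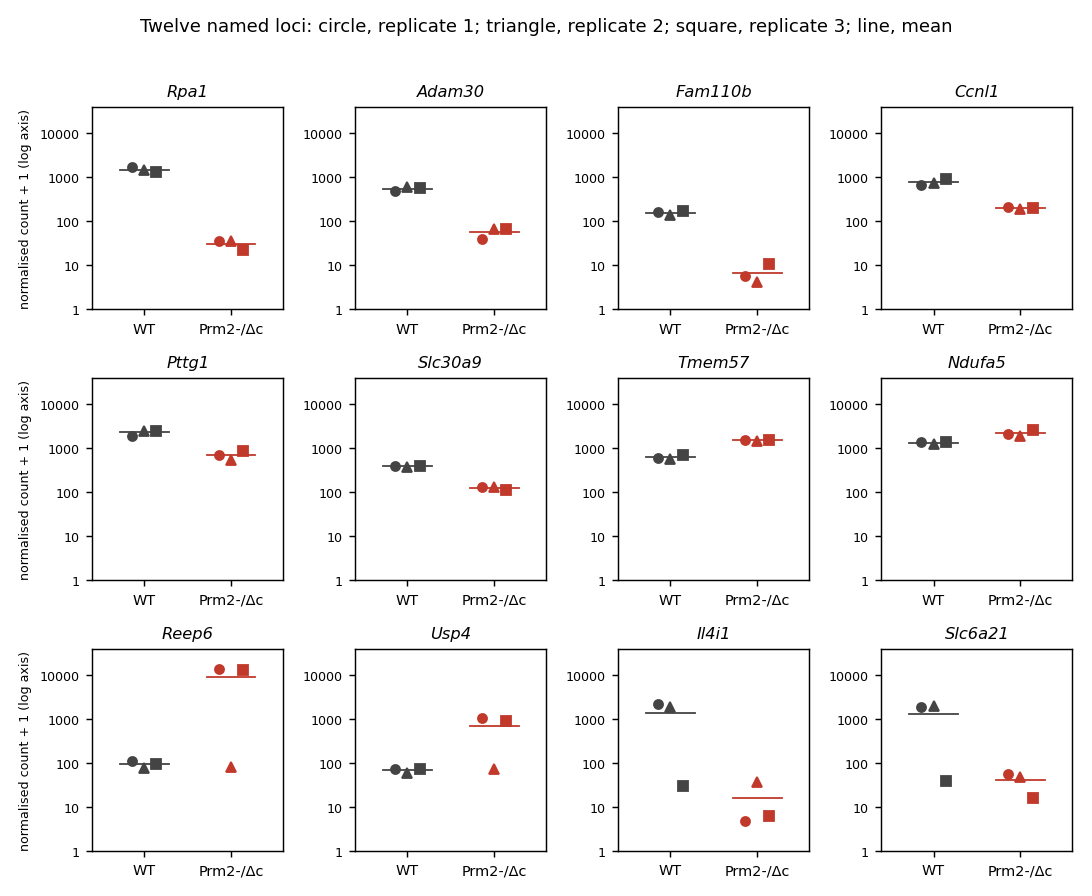
Normalised counts plus 1, on a log axis, of 12 named loci in each library of WT (grey) and Prm2-/Δc (red), with a line at each group's mean. The upper 8 loci separate the groups in all mice, Rpa1 by the widest gap of these, while in Reep6 and Usp4 Prm2-/Δc replicate 2 sits at the WT level and in Il4i1 and Slc6a21 WT replicate 3 sits at the Prm2-/Δc level.

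The 4 tested loci of protein turnover and folding were higher at an unadjusted p under 0.05, and in each the Prm2-/Δc mice were uneven. Fkbp4 encodes a cochaperone of HSP90 that takes part in steroid receptor maturation. It had 460.2, 484 and 416 counts in WT and 6583, 6958 and 968 in Prm2-/Δc (log2 fold change 3.42, SE 0.712, adjusted p = 0.972 in edgeR's test). Replicate 3 was closer to WT than to its own group, and without it the adjusted p was 0.00217. Usp4, a ubiquitin protease, had 70.5, 58 and 73.6 counts in WT and 1089, 72.8 and 925 in Prm2-/Δc. Fbxo34, an F-box protein of ubiquitin ligases, had 14.4, 15.1 and 7.04 counts against 1049, 28.2 and 456. Rnf167, a ubiquitin ligase, had 12.9, 25.5 and 26.6 counts against 458, 27.4 and 383. In these 3 genes replicate 2 was the low one, at or just above the WT level. Dtx2, a Deltex ubiquitin ligase that had too few counts to be tested, was high in Prm2-/Δc replicate 1 alone (566 counts, against 3.13 and 27.4 in the others and 3.91 to 4.64 in WT).

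Of 8 loci of the secretory pathway and membranes, 6 were higher and 2 lower. Tmem57, a transmembrane protein, had the smallest spread, with 598, 578 and 696 counts in WT and 1514, 1476 and 1564 in Prm2-/Δc (log2 fold change 1.28, SE 0.132, adjusted p = 0.103 in edgeR's test). Alg11, a mannosyltransferase of N-glycan synthesis, had 15.8, 23.2 and 7.82 counts against 89.9, 88.5 and 213 (log2 fold change 3.07, SE 0.566). Tlcd1, a TLC domain membrane protein, was lower, with 519, 575 and 642 counts against 106, 94 and 213 (log2 fold change -2.07, SE 0.35, adjusted p = 0.601). Among the fits that left out 1 library, Tlcd1 passed the cutoff only without Prm2-/Δc replicate 3, the highest of its group (adjusted p = 0.0286). These 3 genes did not overlap between groups. Reep6, which shapes membranes of the endoplasmic reticulum, had the largest difference in counts among the higher loci, but in 2 of 3 mice. Its counts were 108, 76.6 and 94.7 in WT and 13850, 79.1 and 13244 in Prm2-/Δc, so replicate 2 lay inside the WT range. The log2 fold change of 6.60 had an SE of 1.68 and an adjusted p of 1, which became 0.00301 without replicate 2. Vps39, a subunit of the HOPS tethering complex, was also high in replicates 1 and 3, with 183, 12.5 and 196 counts against 8.63, 9.28 and 8.61. Unlike in Reep6, replicate 2 was above every WT library in Vps39.

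Cell surface loci were split, with 2 higher and 2 lower. Adam30, a testis-expressed member of the ADAM family, lies at GRCm38 chr3:98160630-98164169. It had 486, 603 and 556 counts in WT and 38.9, 64.2 and 64.4 in Prm2-/Δc (log2 fold change -3.29, SE 0.264, adjusted p = 0.0588 in edgeR's test). The adjusted p stayed between 0.0549 and 0.199 when single libraries were left out, so Adam30 missed the cutoff in each of these fits. Itgad, an integrin alpha subunit, had 233, 142 and 159 counts against 46.3, 76 and 47.5 (log2 fold change -1.64, SE 0.32). Wfdc3, a protein with WAP domains, had 236, 346 and 137 counts against 765, 669 and 939 (log2 fold change 1.72, SE 0.355). Both kept the groups apart. Igsf8, of the immunoglobulin superfamily, had 606, 43.1 and 355 counts in Prm2-/Δc, of which replicate 2 fell within the WT range of 38.3 to 56.1.

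Among kinases and phosphatases, 1 of 3 tested loci was higher and 2 were lower. Tesk1, a kinase first described in testis, had 164, 174 and 182 counts in WT and 318, 332 and 343 in Prm2-/Δc (log2 fold change 0.93, SE 0.157, adjusted p = 0.601 in edgeR's test). The SD was 9.19 in WT and 12.7 in Prm2-/Δc, small beside the gap between the means of 173 and 331. Ilkap, a phosphatase of the PP2C family, had 285, 326 and 356 counts against 157, 114 and 108 (log2 fold change -1.35, SE 0.22). Ptpa, an activator of protein phosphatase 2A, had 1896 and 2185 counts in WT replicates 1 and 2 but 72 in WT replicate 3, beside 48.2, 77.5 and 29.6 in Prm2-/Δc. Mark4, a microtubule affinity regulating kinase that did not pass the filter on low counts, had 365, 2.32 and 280.1 counts in WT and 3.71, 2.35 and 8.45 in Prm2-/Δc.

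The other protein-coding loci held 5 higher and 4 lower of 9 tested. Fam110b had 157, 139 and 167 counts in WT and 4.63, 3.13 and 9.5 in Prm2-/Δc (log2 fold change -4.75, SE 0.435, adjusted p = 0.0896 in edgeR's test), and the adjusted p was 0.0149 without Prm2-/Δc replicate 3. Fam102a had 325, 355 and 317 counts against 3.71, 18.8 and 5.28 (log2 fold change -5.11, SE 0.613, adjusted p = 0.199), and 0.0189 without Prm2-/Δc replicate 2. Neither locus overlapped between groups. Tprn, known for its part in the hair bundle of the inner ear, had 63.3, 63.8 and 46.9 counts against 1588, 1517 and 203 (log2 fold change 4.25, SE 0.787, adjusted p = 0.725). Among the fits that left out 1 library, it passed the cutoff only without Prm2-/Δc replicate 3, the lowest of its group (adjusted p = 0.00484). Pdxdc1 had 1359, 1652 and 1038 counts against 419.7, 424 and 177 (log2 fold change -1.99, SE 0.377). Lzts3 had 21.6, 6.96 and 15.6 counts in WT and 0 in Prm2-/Δc, at least 5.31-fold lower, and was not tested.

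Of the 12 loci of noncoding RNAs, pseudogenes and unnamed models, 11 were tested, with 4 higher and 7 lower. Gm37933, a lincRNA gene, had 0 counts in WT and 45.4, 48.6 and 66.5 in Prm2-/Δc, at least 16.6-fold higher (adjusted p = 0.199 in edgeR's test). Gm37493, a processed pseudogene on the opposite strand, had 27.3, 51 and 35.2 counts in WT and 0 in Prm2-/Δc, at least 14-fold lower (adjusted p = 0.428). The first spans GRCm38 chr3:86142757-86145545 on the plus strand and the second chr3:86144937-86145369 on the minus strand, so the second lies within the first. Whether strand was used in counting is not given in the sources used here, and reads of the 2 genes then cannot be told apart. AC159190.1, a processed pseudogene, had 50.3, 44.1 and 57.1 counts against 15.7, 10.2 and 13.7 (log2 fold change -1.93, SE 0.319). Gm26974 had 0 counts in WT and 26.9, 20.4 and 17.9 in Prm2-/Δc, at least 6.87-fold higher. Gm15738, an antisense RNA gene on chromosome 16, had 404, 361 and 286 counts against 0, 19.6 and 7.39, with the same limit on strand.

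The libraries that carried a difference were not the same from locus to locus. Taking for each locus the midpoint between its lowest and highest library on the log2 scale, 33 loci had all 3 WT libraries above it and 12 had all 3 Prm2-/Δc libraries above it. In 9 loci only WT replicates 1 and 2 were above it: Cdc23, Il4i1, Ptpa, Slc6a21, Tmem41b, Tomm6, 4930440C22Rik, Cdk2ap2 and Prr13. WT replicate 3, the deepest WT library with 16799651 counts, was no higher than the highest Prm2-/Δc library in the first 6 of these, and above all Prm2-/Δc libraries in 4930440C22Rik, Cdk2ap2 and Prr13. In 8 loci only Prm2-/Δc replicates 1 and 3 were above it: Cdk20, Igsf8, Lrrc57, Reep6, Usp4, Fbxo34, Rnf167 and Vps39. In 5 loci only replicates 2 and 3 were (4930432K21Rik, Jagn1, Yjefn3 and Tdrd1 among them), and in 4 only replicates 1 and 2 (Ergic2, Fkbp4, Tprn, Fam131b). Which mice were high thus differed among genes of unlike function, and these lists were drawn up after the values had been seen. Jagn1, a protein of the endoplasmic reticulum, is an example, with 6.49, 354 and 523 counts in Prm2-/Δc against 12.9, 19.7 and 7.04 in WT. Ergic2, of the compartment between the endoplasmic reticulum and the Golgi, had 3949, 3340 and 1008 against 589.7, 924 and 448. Tmem41b, a scramblase of the endoplasmic reticulum, had 301, 297 and 21.9 counts in WT and 18.5, 14.1 and 26.4 in Prm2-/Δc.

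Where the bounds of assembled loci are drawn decides which counts a locus receives. The counts of the 2 loci on each side were therefore added to those of 74 named loci. For 28 of the 74, the neighbours' difference between groups amounted to no more than 10% of the locus's own. Rpa1 was 1 of these: its 4 neighbours together had 348, 324 and 295 counts in WT and 288, 316 and 357 in Prm2-/Δc, and their difference offset -0.138% of its own. The neighbours of Reep6 (-0.328%) and Rps20 (0.334%) offset as little. In 12 loci the neighbours differed in the opposite direction by more than 50% of the locus's difference. Gm37493 (95.4%) and Gm37933 (103%) were among them, as were Wfdc3 (58.1%), Igsf8 (145%), Ahdc1 (157%) and Alg11 (377%). Gm37493 and Gm37933 carry adjacent locus numbers, so each is part of the other's neighbour sum and their offsets are not separate cases. The neighbours of Ptpa offset 41.5%, those of Slc30a9 20.2% and those of Adam30 10.2%. Of the 74 loci, 70 had a ratio of group means past 1 on the log2 scale alone and 18 had one with their neighbours. Where neighbours hold many counts, the sum is less sensitive: for Igsf8 they had between 13767 and 19856 counts in a library.

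**Figure D4:**
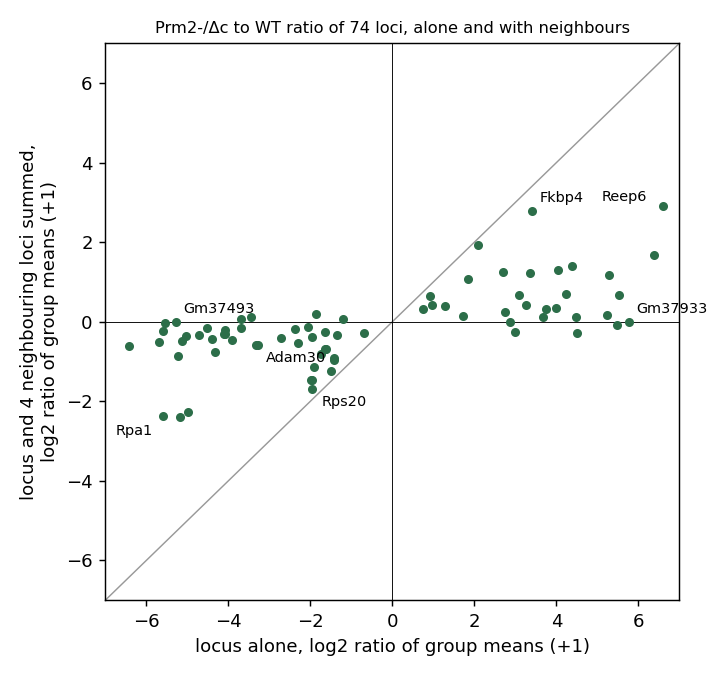
Log2 ratio of Prm2-/Δc to WT group means (with 1 added) for 74 named loci alone (horizontal axis) and together with the 2 loci on each side (vertical axis), with the line of equal values in grey. Fkbp4 and Rps20 stay near the line, Rpa1 and Reep6 keep a ratio past 2 in size, and Gm37493 and Gm37933 drop to -0.01.

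The loci named only by the Prm2+/Δc sheet were chosen from other mutant mice but against the same WT libraries, so they are not independent of the WT values used here. Of 71 tested, 12 were higher (16.9%) and 7 lower (9.86%) at an unadjusted p under 0.05, beside 1.54% and 1.66% of all rows tested, and 0 were called by edgeR. Ppp4r2, a regulatory subunit of protein phosphatase 4, had 728, 666 and 811 counts in WT and 1230, 1412 and 1064 in Prm2-/Δc (log2 fold change 0.75, SE 0.161, unadjusted p = 0.00298). Stub1, the ubiquitin ligase CHIP that works with chaperones, had 141, 129.9 and 157 counts against 241, 209 and 316 (log2 fold change 0.84, SE 0.221). Ing4, a reader of methylated histone H3 in acetyltransferase complexes, had 9792, 10014 and 9911 counts against 2711, 3492 and 6557. WT libraries of Ing4 were nearly equal while Prm2-/Δc replicate 3 lay between the groups, and without it the locus passed the cutoff (adjusted p = 0.0499). Its log2 fold change was -1.22 (SE 0.323, adjusted p = 1). Mbd6, a protein with a methyl-CpG-binding domain, had a log2 fold change of -0.57 (SE 0.153). Trappc12, of a vesicle tethering complex, had 1.06 (SE 0.299).

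Rows with their own Ensembl ID had low levels, with a median of 19.5 counts against 129 over all rows tested. All such rows together held between 0.373% and 0.414% of a library's counts, so their levels need not be those of the whole gene. Of 1575 tested, 13 were higher (0.825%) and 26 lower (1.65%) at an unadjusted p under 0.05, against 1.54% and 1.66% of all rows, and 0 were called. The groups did not overlap for 63 higher and 92 lower rows of these 1575, beside 4.65% and 4.24% of all rows tested. The smallest p among lower rows was that of Pprc1, a coactivator related to PGC-1 that acts on genes of mitochondria, with 61.8, 59.2 and 59.5 counts in WT and 25, 31.3 and 26.4 in Prm2-/Δc (log2 fold change -1.12, SE 0.244, unadjusted p = 0.00316, adjusted p = 1 in edgeR's test). Slc7a2, a transporter of cationic amino acids such as arginine, had 92, 95.1 and 72 counts against 47.2, 41.5 and 41.2 (log2 fold change -0.99, SE 0.237). Kcnma1, a calcium-activated potassium channel, had 38.8, 53.4 and 36 counts against 14.8, 22.7 and 14.8 (log2 fold change -1.28, SE 0.348). In these 3 genes the lowest WT library was above the highest Prm2-/Δc library. Parp8, a member of the poly(ADP-ribose) polymerase family, had a log2 fold change of -1.96 (SE 0.548), and the lincRNA Gm28874 had -1.78 (SE 0.501).

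On the higher side, the lincRNA Gm38590 had 0 counts in WT and 10.2, 11 and 12.7 in Prm2-/Δc, at least 3.53-fold higher (unadjusted p = 0.00331). Nrk, a kinase gene on chromosome X, had 11.5, 6.96 and 11 counts against 38.9, 18.8 and 43.3 (log2 fold change 1.76, SE 0.482). Fes, a tyrosine kinase, had 0, 3.48 and 0 counts against 15.7, 12.5 and 11.6. These levels are near the detection limit, and all 10 of the rows named here had an adjusted p of 1. Nxnl1 had a log2 fold change of 1.48 (SE 0.546) and Abcc9, a regulatory subunit of potassium channels, had 1.26 (SE 0.468).

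**Figure D5:**
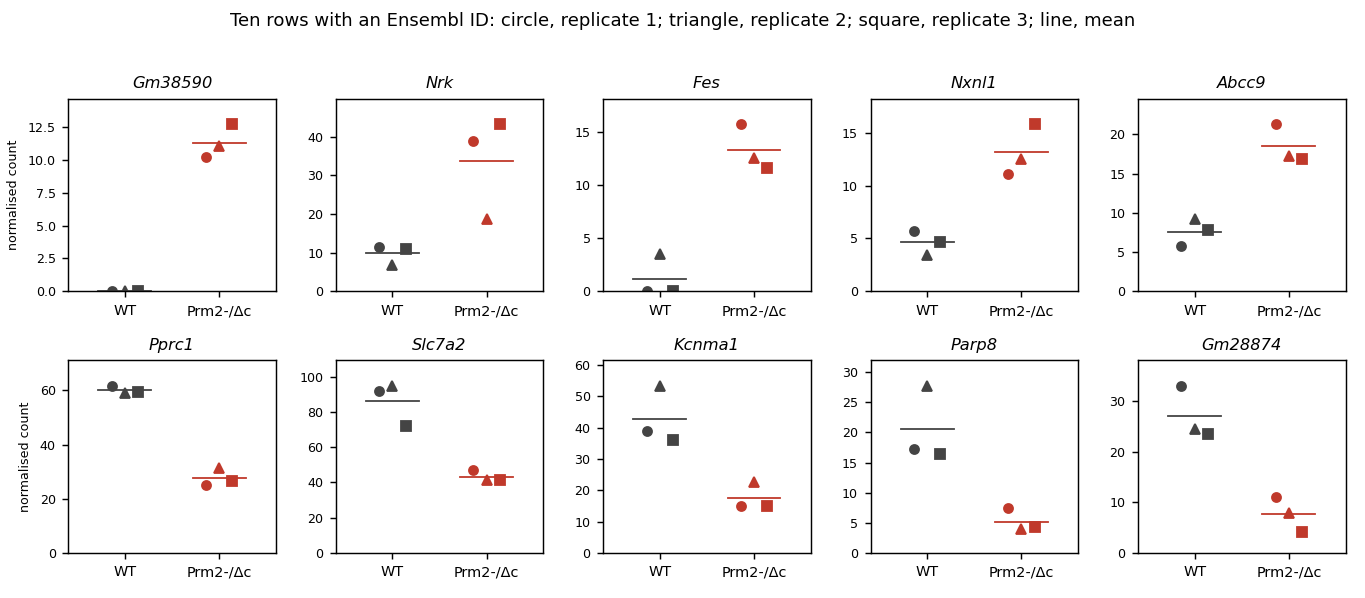
Normalised counts, on a linear axis from 0, of 10 rows with an Ensembl ID in each library of WT (grey) and Prm2-/Δc (red), with a line at each group's mean. In each of the 10 the groups do not overlap, and levels are below 100 counts in all libraries.

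Few markers of testis cell types could be followed, because between 0% and 70% of the genes of each list had a named row, and 0 of those tested reached an unadjusted p under 0.05. Outside the protamine cluster most of these are rows with an Ensembl ID, which together held between 0.373% and 0.414% of a library's counts. Whether loci without a name hold further counts of the same genes was not tested. A low or 0 count in such a row therefore does not measure the gene's level or the cells present. Spermatogonia were followed by Zbtb16 (log2 fold change 0.06) and Kit (-0.71), 2 of 10 genes. None of the 10 spermatocyte and 10 round spermatid genes had a name, so these stages were not checked. The elongating spermatid list had 4 of 10, which are the cluster genes described above and are also the 4 of 19 genes named in the list for histone to protamine exchange. Their sum lay between 391898 and 433460 counts in WT and between 367862 and 639029 in Prm2-/Δc. The rows with the Ensembl IDs of the Sertoli cell markers Amh and Fshr had 0 counts in every library, and the other 10 genes of that list had no name. Lhcgr, the only named Leydig cell marker, had between 8.63 and 25.5 counts in WT and between 11.1 and 19 in Prm2-/Δc.

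Other cells of the tissue were traced by few counts too, with the same limit for rows with an Ensembl ID. Peritubular myoid markers (3 of 8) summed to between 94.7 and 672 counts in WT and between 137 and 749 in Prm2-/Δc. Myl9, a myosin light chain of smooth muscle, was low in WT replicate 3 (6.26) and Prm2-/Δc replicate 2 (11) but between 394 and 648 in the other 4 libraries. Macrophage markers (2 of 8) summed to at most 20.3 counts, and endothelial markers (4 of 8) to at most 51.7. Red blood cell markers (3 of 7) summed to between 367 and 568 counts in WT and between 549 and 1110 in Prm2-/Δc, nearly all from Hbb-bs, an adult beta globin, whose count was highest in Prm2-/Δc replicate 3 (1105). The log2 fold change of Hbb-bs was 0.73 (unadjusted p = 0.0547), and the part of blood in any other difference was not tested. Epididymis markers (7 of 10) summed to between 0 and 3.91 counts, with 6 at 0 in every library. Of 20 genes listed under antioxidant defence, 5 had a name: Gpx5 and the oxidase genes Nox3, Nox4, Duox1 and Duox2. The oxidases produce oxidants and are not antioxidant genes. None of the 5 reached the filter on low counts.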

How the data were processed

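The authors prepared QuantSeq 3′ mRNA libraries from testis without the tunica albuginea, mapped reads with HISAT2 2.1 to GRCm38 and assembled loci with StringTie 1.3.3, as the methods and the submitters' processing notes state. StringTie's preDE script gave the values the authors deposited, which are estimated counts (expected counts) per locus, whole and not normalised. The read length given to preDE and the strand setting are not given in the sources used here. Locus names were taken from the study's sheets of differentially expressed genes, whose fold changes and p-values were not used, and gene coordinates from the GRCm38 annotation, so they are those of the gene and not of the assembled locus. All count columns of the table belong to a sample.

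The main test was edgeR 4.0.16 (R 4.3.3) on the 6 libraries alone: TMM, filterByExpr, quasi-likelihood F test, Benjamini-Hochberg adjustment over all rows tested, called where the adjusted p was below 0.05 and the log2 fold change above 1 in size. The SE was taken as the size of the log2 fold change over the root of F. DESeq2 1.42.0, which the authors used in version 1.16.1, was an alternative, with 7 other settings and 6 fits that left out 1 library each. On simulated data with 200 of 17637 rows changed by a log2 fold change of 2, edgeR recovered 41% with 7 false calls and DESeq2 77.5% with 76. The changed rows were drawn only from rows above a minimum mean level, with counts simulated from the fitted dispersions. Recovery was therefore not measured for rows of low level.

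Folds against a group at 0 are lower bounds from a floor of 3 counts per library, which covers counting error only, since reads are not independent molecules. Loci described in full are those called and, per functional group, up to 4 by smallest unadjusted p, with 5 from the Prm2+/Δc sheet and 5 per direction from Ensembl rows. Others were named after their values were seen. The members, groups, lists and tests were chosen with earlier results of these data known. A few of the named loci are counted but not reported here by name.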

Additional observations from a re-analysis of the deposited data

How the results depend on the processing

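Counts of rows called moved with the tool and with single libraries. Beside 0 higher and 1 lower rows, DESeq2 gave 27 and 45 and the fit of all 9 libraries gave 2 and 5. The 7 rows of that fit were Adam30, Ccnl1, Fam102a, Fam110b, Gm37933, Pcgf5 and Rps20, while Rpa1 was not called there (log2 fold change -5.65, adjusted p = 0.792 in edgeR's test). With the replicate number as a block, 0 rows were higher and 0 lower (Rpa1, adjusted p = 0.171), and 152 and 209 rows were higher and lower at an unadjusted p under 0.05, beside 272 and 293. The labels do not say whether these numbers pair the mice. Deviations from the group means correlated at -0.0397, -0.0608 and -0.225 for numbers 1, 2 and 3. This shows no shared deviation by number but cannot exclude a pairing. At an unadjusted p under 0.05 the fit of all 9 libraries gave 446 lower rows. Leaving out 1 library in turn gave 0 to 5 higher and 0 to 17 lower rows called, with 0 called without WT replicate 1 or Prm2-/Δc replicate 1, and 3 higher and 17 lower without Prm2-/Δc replicate 3. At an unadjusted p under 0.05 it gave 212 to 410 higher and 198 to 527 lower rows. The causes were not tested. The log2 fold change of the locus read as Prm2 stayed between 0.05 and 0.19 in all settings run. Of 861 alternative values for 62 named genes, 794 kept their direction and side of the cutoff, 63 newly passed it, 4 (all Rpa1, in the 9-library fit, under the block and without either replicate 1) no longer did, and 0 reversed. The 62 were picked by smallest unadjusted p in the main fit, most from a sheet drawn up on these libraries. Few reversals were therefore likely in advance. For every gene but Rpa1, keeping the side of the cutoff meant staying uncalled. DESeq2 size factors, library totals, both filters and the robust dispersion left 0 higher and 1 lower, which was Rpa1 in each. Library totals shifted the median log2 fold change of all rows to -0.03 and gave 201 higher and 361 lower rows at an unadjusted p under 0.05. With 3 mice a group and a biological coefficient of variation of 0.452, the self-test recovered 41% of changes of 2 on the log2 scale. This holds for edgeR and for simulated rows above the minimum mean level only.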
